A study of Mus musculus with 8 samples.

Results

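Respiratory complex I, the NADH:ubiquinone oxidoreductase of the inner mitochondrial membrane, was followed through its nuclear genes in mouse soleus with and without the transcription factor KLF15. The genes were chosen by name: every row of the deposited table whose symbol begins with Nduf and whose mean over the libraries is at least 1 FPKM (mapped fragments scaled by transcript length and by library size). All 45 such rows of the table passed that limit, out of 24033 rows in all, of which 12535 reached it. They are 36 structural subunits (7 core and 29 supernumerary), 7 assembly factors named Ndufaf, and the pair Ndufa4 and Ndufa4l2. The lists used held 38 structural and 8 Ndufaf names, so not every listed gene has a row. Ndufaf8 is among those without one. The 4 MyoCre control libraries came from mice of the genotype Myogenin-Cre/+, and the 4 K15-SKO libraries from mice of the genotype Myogenin-Cre/+;K15F/F. All mice were 2 months old. Both groups carry the Cre, which the myogenin promoter drives in skeletal muscle, so other cells of the muscle keep the gene. The comparison asks how the RNA of the soleus, a slow and oxidative hindlimb muscle, differs with KLF15 deletion. KLF15 is a Kruppel-like zinc finger factor known for its role in amino acid and lipid use.

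Complex I is L-shaped. Its matrix arm takes electrons from NADH and passes them through a flavin and a chain of iron-sulfur clusters to ubiquinone, and its membrane arm pumps protons. The core subunits carry out that chemistry and are conserved from bacteria; some are encoded in the nucleus and the rest in mitochondrial DNA. The supernumerary subunits surround and stabilise the core, and the assembly factors help to build the complex without staying in it. Ndufa4, first listed with complex I, is now placed with cytochrome c oxidase, complex IV.

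The libraries held FPKM sums of 519884 to 652275. Depth estimated from the lowest values was 8426798 to 22831619 fragments per library, the highest in MyoCre replicate 2, which was also the 1 library with Y-linked transcripts (mean of 4 genes 16.2 FPKM, against 0 in the other 7). K15-SKO replicate 3 stood apart with a median-of-ratios scaling factor of 0.80, against 0.95 to 1.15 in the other 7 libraries. The targeted gene measured 44.5, 49.8, 49.1 and 22.8 FPKM in MyoCre and 15.7, 19.3, 16.7 and 13.1 FPKM in K15-SKO muscle (two-sided exact permutation test, p = 0.0286, the smallest that 70 assignments allow; n = 4 each). Slow fibre markers summed to 25391, 23962, 27009 and 15845 FPKM in MyoCre replicates 1 to 4. In K15-SKO replicates 1 to 4 they summed to 23519, 29946, 15775 and 16833 FPKM. Of these markers, 0 of 10 were at 0 in any library. Sums of fibroblast markers ran from 549.3 to 965.5 and from 405.2 to 718.9 FPKM, those of endothelial markers from 98.96 to 137.4 and from 125.4 to 162.0 FPKM, those of macrophage markers from 18.6 to 20.3 and from 10.1 to 18.3 FPKM, and those of fat cell markers from 10.4 to 17.1 and from 4.24 to 14.6 FPKM; Ucp1 was at 0 in 7 of 8 libraries. Fast fibre markers summed to 8065 to 18242 and 6769 to 17032 FPKM, and erythroid genes to 284.1 to 459.0 FPKM in MyoCre and to 320.5, 577.8, 2037 and 334.7 FPKM in K15-SKO replicates 1 to 4, so that replicate 3 stood apart in these as well. The part of these markers in the results on complex I was not tested. In these whole-muscle samples, fewer cells of a type and less RNA per cell cannot be told apart.

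The structural subunits were abundant in soleus. Their means over the 8 libraries had a median of 228.8 FPKM, and 31 of 36 lay between 100 and 500 FPKM, with 1 above and 4 below. Each value is taken as normalised by transcript length, so levels are set side by side as rough estimates. The lengths used and any correction for base composition are not stated in the sources used here. The highest was Ndufb9, a subunit of the distal membrane arm, with 641.7, 790.6, 677 and 439.1 FPKM in the MyoCre libraries and 628.8, 772, 431.6 and 440 FPKM in the K15-SKO libraries. Both genotypes thus covered the same range, and replicate 4 was low in each, as was K15-SKO replicate 3.

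Ndufb8, also of the distal arm, came next with 443.4, 526.9, 524 and 411.3 FPKM in MyoCre (476.4 ± 58.1, SD, n = 4, as for all later errors of FPKM) and 457.8, 522, 569.6 and 392 FPKM in K15-SKO muscle (485.4 ± 77.3). Ndufb5 of the same arm followed with 400.5, 399.6, 493.6 and 474.9 FPKM (442.1 ± 49.2) and 403.4, 402.9, 322.9 and 465.4 FPKM (398.6 ± 58.4). In K15-SKO replicate 3, Ndufb8 was at its highest and Ndufb5 at its lowest. Ndufa5 of the matrix arm measured 344.2, 385.8, 411.4 and 318 FPKM (364.8 ± 41.7) and 354.1, 405.7, 253.4 and 332.1 FPKM (336.3 ± 63.3). The order below these was close. Of the 35 neighbouring pairs in the order of levels, 8 were ordered the same way in all 8 libraries, for instance Ndufc1 above Ndufb6 and Ndufs1 above Ndufs6, so most neighbours between 200.4 and 263.7 FPKM cannot be ranked.

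The low end was set off clearly. Ndufs5 (61.6 FPKM over the 8 libraries), Ndufa11 (42.9), Ndufab1 (28.3) and Ndufb4 (22.5) followed each other in the same order in all 8 libraries. The level of Ndufb9 was 26.8 times that of Ndufb4, although the assembled complex holds 1 copy of each. Ndufa11, which sits at the joint of the arms, measured 40.3, 53.6, 48.2 and 37.6 FPKM in MyoCre and 41.2, 45.3, 40.8 and 36.5 FPKM in K15-SKO muscle, the lowest being replicate 4 of each. Ndufab1, the mitochondrial acyl carrier protein, is present in both arms and also serves mitochondrial fatty acid synthesis. The mouse annotation names a processed pseudogene for Ndufb4 (Ndufb4c), Ndufab1 (Ndufab1-ps) and Ndufa11 (Ndufa11b), and also for Ndufs6 (Ndufs6b), which measured 162.1 FPKM. Those pairs were matched by name. Reads shared with such near-identical copies may have been split or dropped by the counting, so the levels of these 4 genes are uncertain; that effect was not tested.

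The 7 assembly factors were present at far lower levels, with means from 5.76 FPKM for Ndufaf7 to 29.4 FPKM for Ndufaf1, and 34 of 36 structural subunits lay above the highest of them. Within a library, the median structural subunit measured 23.0 to 30.6 times the median assembly factor in 7 of the 8 libraries. The exception was K15-SKO replicate 3, at 50.1 times. The estimated number of fragments behind an assembly factor was as low as 34.1 (Ndufaf2 in K15-SKO replicate 3). Every structural subunit had at least 169.8 (lowest for Ndufa11), so counting error weighs more on the lowest assembly factors. Ndufaf1 and Ndufaf4 had at least 331.6 and 220.1 in every library.

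**Figure D1:**
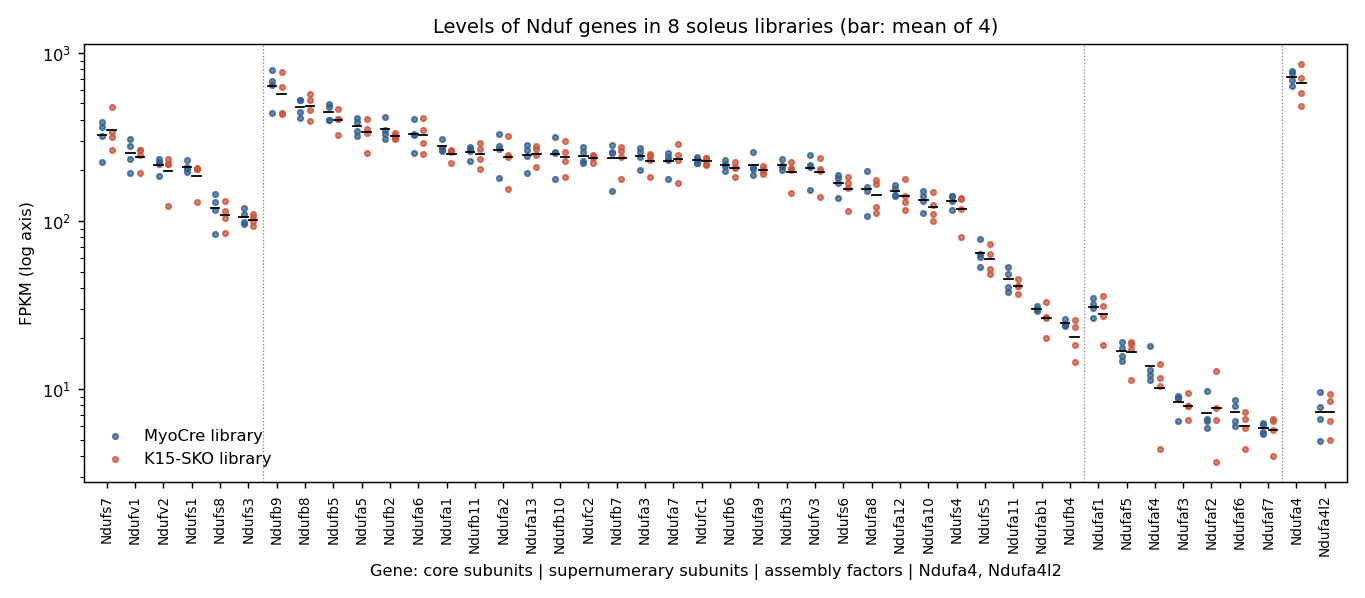
Level of the Nduf genes reported here in FPKM on a log axis, ordered by role and by mean; each point is 1 library of MyoCre (blue) or K15-SKO (red) muscle and each bar the mean of 4. Most structural subunits sit between 100 and 500 FPKM, the assembly factors between 5.76 and 29.4 FPKM on average, and the points of both genotypes overlap for every gene shown.

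Promoters of these genes are shown because nuclear respiratory factor 1 (NRF1) is a known activator of many respiratory genes, and matches to its site mark a few members of both roles. RefSeq promoter windows (GRCm38.p6, 250 bases before to 50 after the start) matched 39 of the 45 genes by symbol. The letters GCATGCGC, on either strand, stood in the windows of 5 of these 39 genes (12.8%), against 6.28% of 8418 tested genes with a window and 3.05% of all 27025 genes with one. The 5 are the subunits Ndufa6, Ndufa8 and Ndufa11 and the assembly factors Ndufaf4 and Ndufaf5. One stretch of 30 bases is given for each, in the direction of the gene, with the match in capitals, at chr15:82354356-82354385 (minus strand), chr2:36049328-36049357 (minus), chr17:56717693-56717722 (plus), chr4:24897961-24897990 (plus) and chr2:140170653-140170682 (plus) in that order.
Ndufa6: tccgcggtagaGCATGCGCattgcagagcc
Ndufa8: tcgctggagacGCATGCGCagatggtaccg
Ndufa11: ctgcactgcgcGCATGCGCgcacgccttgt
Ndufaf4: cagatgtctgcGCATGCGCctgtgcggaag
Ndufaf5: gtcccgttggcGCATGCGCctaatagaaac

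These 5 genes share the site letters but not a level. Over the 8 libraries Ndufa6 averaged 325.9 FPKM and Ndufa11 42.9 FPKM. Other letters were searched on both strands in the same windows. The GABP core CCGGAAG stood in 5 of 39 genes (12.8%, against 20.8% of tested genes), the YY1 core ATGGCGG in 9 (23.1% against 10.1%), the GC box GGGCGGG in 15 (38.5% against 52.9%) and the CACCC box CCACCC, a type of sequence that Kruppel-like factors bind, in 9 (23.1% against 41.3%). The ERR site TCAAGGTCA stood in 0 of 39, against 0.297% of tested genes. None of these 6 strings contains another, though a GCATGCGC and its reverse complement overlap in 3 of the 5 windows. A match describes the letters of a window and not the binding of a factor.

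No Nduf gene with a row differed detectably between the genotypes. In limma, with Benjamini-Hochberg adjustment over all 12535 tested genes, 0 of 45 Nduf genes passed adjusted p 0.05, and 0 of 45 had an unadjusted p under 0.05. The background was 0.55% of tested genes past adjusted p 0.05 (69 genes, 46 of them listed at 0 in every library of 1 genotype) and 4.33% with an unadjusted p under 0.05. By direction, 0 of 45 were called lower and 0 higher in K15-SKO muscle, where 0.183% and 0.367% of tested genes were. The smallest adjusted p of an Nduf gene was 0.957, and the smallest unadjusted p was 0.125 (Ndufaf4). The genotypes' libraries overlapped in all 45 genes, where 3.35% of tested genes did not overlap (2.72% with every K15-SKO library below and 0.63% with every one above). Of the log2 fold changes on the log2(FPKM + 0.5) scale, K15-SKO minus MyoCre, 38 were negative and 7 positive. That split has to be read against all tested genes, of which 77.0% were negative with a median of -0.12. With median-of-ratios scaling, which moved that median to 0.00, 30 of the 45 were positive and 0 passed.

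The intervals show how large a difference these libraries could hold. All 36 structural subunits had 95% confidence intervals of the fold change that lay within 50% and 200% of the control level, and 28 lay within 67% and 150%. Their K15-SKO means ran from 83.1% of the MyoCre mean (Ndufb4) to 107.8% (Ndufs7). A difference inside a gene's interval is not excluded by these libraries, with 4 per genotype. The intervals are per gene and not adjusted for the number of genes tested. The labels give 4 mice per group but no litter, and the p-values set a difference in means against the spread between these libraries.

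**Figure D2:**
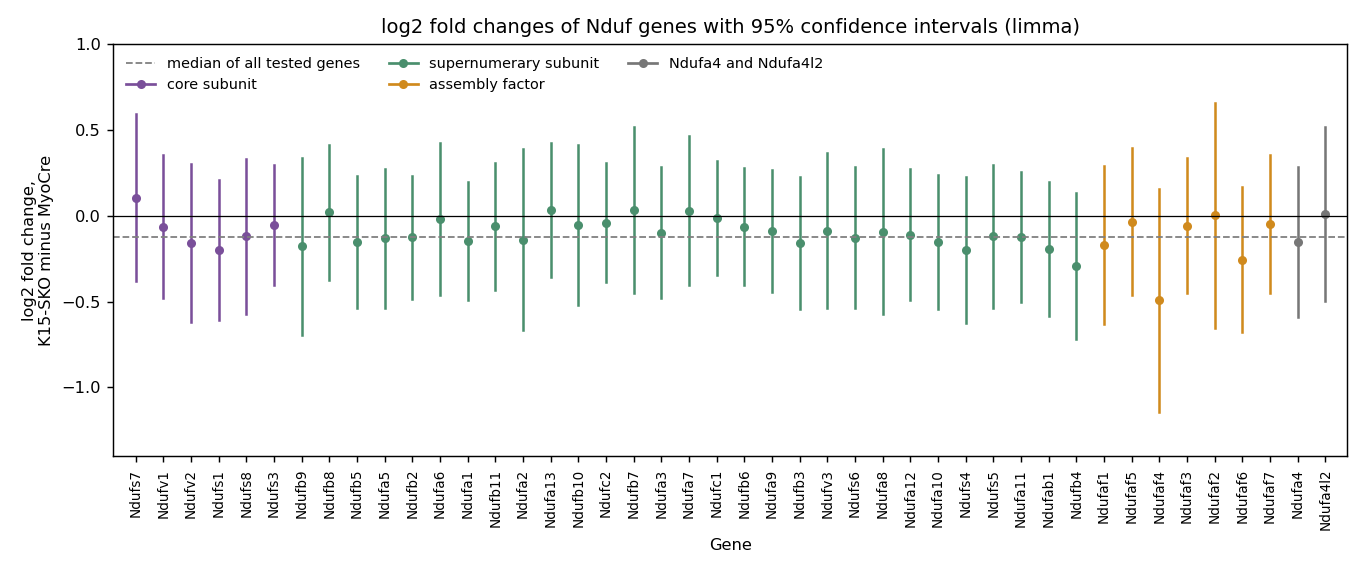
Log2 fold change of the Nduf genes reported here, K15-SKO minus MyoCre on the log2(FPKM + 0.5) scale, with 95% confidence intervals from limma, coloured by role; the dashed line is the median of all tested genes, -0.12. Every interval shown includes 0, and the lowest point is Ndufaf4 at -0.49.

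Among the 7 core subunits, all of the matrix arm, 6 log2 fold changes were negative and 1 was positive, with a median of -0.06. Ndufv1, which binds NADH and the flavin, measured 234.8, 279.7, 305.9 and 194.0 FPKM in MyoCre and 246.9, 263.0, 263.1 and 191.6 FPKM in K15-SKO muscle. The 2 sets of libraries overlapped almost fully, and replicate 4 was the lowest of each. Its partner Ndufv2, which carries an iron-sulfur cluster, measured 185.7, 232.9, 224.4 and 217.9 FPKM in MyoCre and 216.7, 234.3, 123.3 and 217.9 FPKM in K15-SKO muscle. Only K15-SKO replicate 3 was low, and the estimate was -0.16 on the log2 scale (SE 0.21, adjusted p = 0.957 in limma).

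Ndufs1, the largest core subunit and a carrier of several clusters, had the same shape: 195.2, 203.6, 230.4 and 209.2 FPKM in MyoCre against 202.6, 202.9, 129.1 and 206.9 FPKM. Apart from K15-SKO replicate 3 the K15-SKO libraries lay inside the MyoCre range. Ndufs7 holds the last iron-sulfur cluster before ubiquinone. Ndufs7 was the core subunit with the positive value, at 321.5, 360.7, 387.2 and 224.6 FPKM in MyoCre and 339.1, 317.1, 475.4 and 263.4 FPKM in K15-SKO muscle (log2 fold change 0.10, SE 0.23, adjusted p = 0.959). Here K15-SKO replicate 3 was the highest of all 8 libraries, the reverse of its place for Ndufv2 and Ndufs1. Without that library the log2 fold change of Ndufs7 turned to -0.06, that of Ndufv2 to 0.06, and that of Ndufs1 was -0.04 in place of -0.20.

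Ndufs8, another cluster subunit, measured 116.7, 144.2, 130.1 and 83.9 FPKM in MyoCre and 113.9, 131.8, 103.6 and 84.3 FPKM in K15-SKO muscle. Both low values were again of replicate 4. Ndufs3 varied less, with 98.1, 110.5, 119.8 and 96.1 FPKM against 93.3, 99.8, 105.2 and 109.2 FPKM. The proteins of these genes sit next to each other in the matrix arm, while the libraries in which their transcripts were low differed.

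The 29 supernumerary subunits had 25 negative and 4 positive log2 fold changes, with a median of -0.11. By place in the complex, the median was -0.10 for the 16 matrix arm subunits (core ones included), -0.10 for the 9 of the proximal membrane arm and -0.09 for the 10 of the distal membrane arm. These medians lie 0.02 to 0.03 above that of all tested genes. Ndufb4 of the distal arm had the smallest unadjusted p of a structural subunit, 0.158. It measured 26.1, 24.4, 24.1 and 23.8 FPKM in MyoCre and 18.2, 25.7, 14.4 and 23.5 FPKM in K15-SKO muscle (log2 fold change -0.30, SE 0.20, limma adjusted p = 0.957). K15-SKO replicates 1, 3 and 4 were below the MyoCre range, replicate 4 only just, and replicate 2 was within it. Without K15-SKO replicate 3 its log2 fold change was -0.14. The gene lies at chr16:37647170-37654453 (GRCm38, minus strand).

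Ndufs4, whose loss causes Leigh syndrome in people and a well-known encephalopathy model in mice, measured 116.7, 130.7, 140.6 and 140.1 FPKM in MyoCre and 117.9, 134.2, 79.8 and 136.5 FPKM in K15-SKO muscle. The acyl carrier protein gene Ndufab1 measured 29.1, 29.9, 29.8 and 31.0 FPKM and 26.8, 26.6, 20.04 and 32.9 FPKM. In both genes the lowest value was that of K15-SKO replicate 3. After Ndufs7, the smallest p-values among structural subunits with a positive value belonged to Ndufa13, the subunit also known as GRIM-19 (log2 fold change 0.03), Ndufb7 of the distal arm (0.03) and Ndufa7 of the matrix arm (0.03), and none of these reached an adjusted p below 0.986 in limma. Ndufa13 measured 244.6, 281.9, 263.6 and 193.5 FPKM in MyoCre and 268.8, 279.2, 246.3 and 208.7 FPKM in K15-SKO muscle. Ndufb7 measured 252.7, 284.8, 255.6 and 150.4 FPKM and 238.6, 275.8, 259.5 and 178.4 FPKM. Ndufa7 measured 240.3, 254.9, 231.9 and 177.5 FPKM and 245.8, 287.7, 230.2 and 167.9 FPKM. All 3 were lowest in replicate 4 of each genotype.

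The assembly factors had a median log2 fold change of -0.06, with 6 negative and 1 positive. Ndufaf1, part of the intermediate complex that builds the proximal membrane arm, measured 26.3, 30.3, 34.9 and 32.0 FPKM in MyoCre and 27.3, 31.0, 18.2 and 35.7 FPKM in K15-SKO muscle. Ndufaf3 and Ndufaf4 act as partners early in the building of the ubiquinone-binding part. Ndufaf3 measured 9.11, 8.89, 8.83 and 6.46 FPKM in MyoCre and 7.91, 9.43, 7.97 and 6.54 FPKM in K15-SKO muscle, with replicate 4 the lowest of each genotype.

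Ndufaf4 had the most negative log2 fold change of the 45 genes. It lies at chr4:24898083-24905001 (GRCm38, plus strand). Its values were 11.38, 12.11, 12.96 and 18.11 FPKM in MyoCre and 11.57, 10.46, 4.422 and 14.16 FPKM in K15-SKO muscle. The estimate was -0.49 on the log2 scale (SE 0.30, adjusted p = 0.957 in limma), with a 95% confidence interval from 45.2% to 111.6% of the control level. K15-SKO replicate 3 was the lowest and MyoCre replicate 4 the highest, and the other 6 libraries overlapped. Leaving out K15-SKO replicate 4, its highest K15-SKO library, brought the unadjusted p to 0.0344, and the smallest adjusted p of an Nduf gene in that fit was 0.866. Without K15-SKO replicate 3 its log2 fold change was -0.16, and Ndufaf4 no longer had the smallest unadjusted p of these genes; Ndufaf2 did, at 0.268.

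Ndufaf5 and Ndufaf7 modify single arginines of core subunits, Ndufaf5 in Ndufs7. Ndufaf5 measured 14.7, 15.7, 17.5 and 19.0 FPKM in MyoCre and 17.4, 19.1, 11.2 and 18.5 FPKM in K15-SKO muscle. Ndufaf7 measured 5.38, 5.58, 6.27 and 6.07 FPKM against 5.72, 6.61, 4.01 and 6.47 FPKM. For both, K15-SKO replicate 3 was the lowest of the 8 libraries and the other 3 K15-SKO libraries stood within or above the MyoCre range.

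Ndufaf2, a late-acting paralogue of the subunit Ndufa12, measured 6.65, 9.71, 6.44 and 5.83 FPKM in MyoCre and 7.75, 12.8, 3.67 and 6.54 FPKM in K15-SKO muscle. Replicate 2 was the highest of each genotype. Ndufaf6, needed early for the membrane part, measured 7.97, 6.48, 8.66 and 5.997 FPKM and 6.61, 7.27, 4.396 and 5.90 FPKM (log2 fold change -0.26, SE 0.20, limma adjusted p = 0.957).

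Ndufa4 was the most abundant Nduf gene, with 687.7, 784.1, 758 and 632.9 FPKM in MyoCre and 709.3, 859.1, 481 and 578.8 FPKM in K15-SKO muscle. Its paralogue Ndufa4l2, known as a hypoxia-induced gene, measured 4.94, 7.80, 9.60 and 6.67 FPKM and 6.48, 8.48, 9.32 and 4.96 FPKM. The genotypes overlapped in both, with log2 fold changes of -0.15 and 0.01.

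Structural subunits and assembly factors were compared directly through their medians. The structural median minus the assembly median was -0.05 on the log2 fold change scale. Relative to all tested genes the structural median lay 0.02 above and the assembly median 0.07 above. Neither sign was stable: with 1 library left out the first ranged from -0.01 (without MyoCre replicate 4 or K15-SKO replicate 3) to 0.09 (without MyoCre replicate 2), and the second from -0.06 (without K15-SKO replicate 2) to 0.09 (without K15-SKO replicate 1). The difference was small beside the spread between libraries. After each gene's log2(FPKM + 0.5) was centred on its mean over the 8 libraries, the structural minus the assembly median was 0.07, 0.09, 0.05 and -0.26 in MyoCre replicates 1 to 4 and 0.00, -0.03, 0.42 and -0.36 in K15-SKO replicates 1 to 4. The genotypes overlapped, and the widest values lay in replicate 4 of both genotypes and in K15-SKO replicate 3.

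The libraries differed more than the genotypes did. Of the 36 structural subunits, 33 and 36 were above their own mean in MyoCre replicates 2 and 3 and 30 in K15-SKO replicate 2. Above their own mean were 10 in MyoCre replicate 4, 10 in K15-SKO replicate 3 and 9 in K15-SKO replicate 4. The lowest of the 8 values fell in K15-SKO replicate 3 for 15 structural subunits, in K15-SKO replicate 4 for 11 and in MyoCre replicate 4 for 6. For the assembly factors, 0 of 7 were above their own mean in K15-SKO replicate 3, where 6 of 7 had their lowest value, while in replicate 4 of each genotype 4 of 7 were above it. All tested genes also had their lowest median in K15-SKO replicate 3, at -0.29, against -0.11 for the structural subunits and -0.53 for the assembly factors. Slow fibre markers had centred medians of -0.45 in MyoCre replicate 4 and of -0.51 and -0.46 in K15-SKO replicates 3 and 4. In the other libraries those medians were 0.09 to 0.46. The part of fibre markers in the library pattern was not tested.

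**Figure D3:**
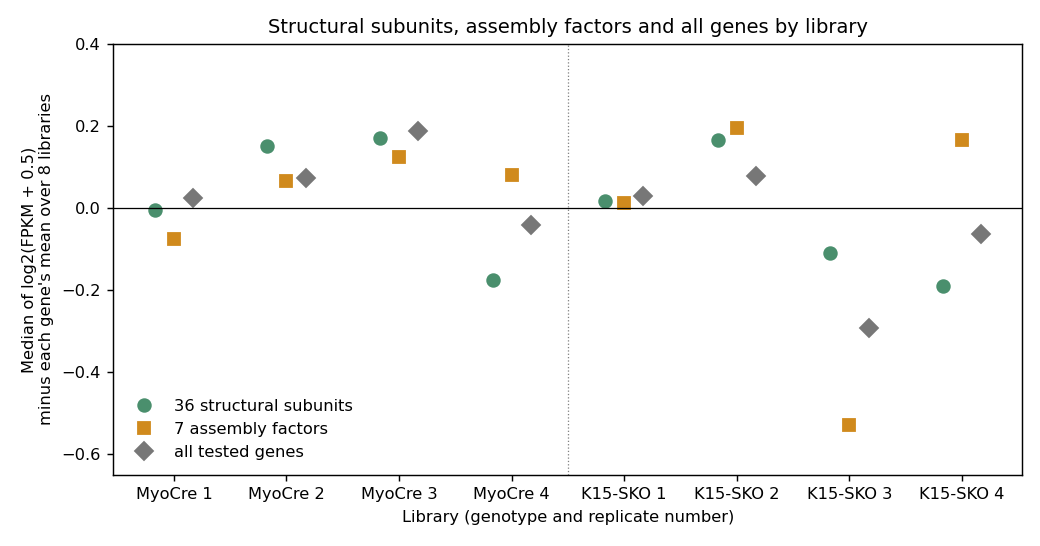
Median of log2(FPKM + 0.5), centred on each gene's mean over the 8 libraries, for the 36 structural subunits (circles), the 7 assembly factors (squares) and all tested genes (diamonds) in each library. In K15-SKO 3 the assembly factors are at -0.53 and the structural subunits at -0.11; in replicate 4 of both genotypes the structural subunits lie below and the assembly factors above 0.

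The base composition of the transcripts moved with this library pattern. GC content was taken from 1 annotated principal transcript per gene (GENCODE M21, GRCm38), and all 45 genes had a value. The structural subunits ran from 42.0% GC (Ndufv2) to 60.4% (Ndufa13) and had short transcripts, with a median of 939.5 bases against 2737 bases for all tested genes. Across the 36 structural subunits, the deviation from a gene's own mean had a Pearson correlation with GC of -0.83 in MyoCre replicate 4, -0.66 in K15-SKO replicate 4 and 0.58 in K15-SKO replicate 3. Values between -0.16 and 0.54 were found in the other 5 libraries. Over 12497 tested genes the same 3 libraries had -0.40, -0.32 and 0.41, and the other 5 lay between -0.01 and 0.17. These are descriptions across genes, which share each library and are not independent replicates.

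Set out by gene, the 12 structural subunits with the most GC (54.8% to 60.4%) were below their own mean in 12 of 12 cases in replicate 4 of each genotype, with medians of -0.36 in MyoCre and -0.36 in K15-SKO muscle. The 12 with the least GC (42.0% to 48.8%) were below it in 3 and 5 of 12 cases there, with medians of 0.06 and 0.02. In K15-SKO replicate 3 it was the least GC-rich group that was low, in 11 of 12 cases with a median of -0.31, against 6 of 12 and 0.00 in the GC-rich group. Ndufv2, Ndufs1 and Ndufs4 (42.0%, 45.1% and 43.1% GC) belong to the GC-poor group, and Ndufs7 and Ndufb7 (59.6% and 59.7%) to the GC-rich one. The assembly factors had a median of 47.2% GC, with Ndufaf4 the poorest at 39.5% and Ndufaf3 the richest at 56.0%. Ndufaf3 had the lowest of its 8 values in MyoCre replicate 4, and the other 6 had theirs in K15-SKO replicate 3. With a linear correction of each library for GC, chosen after seeing the data, the structural and assembly medians were -0.01 and -0.01. With it 0 of 45 genes passed (smallest limma adjusted p 0.938). The same step recentred each library, and the median of all tested genes moved from -0.12 to -0.01. Median-of-ratios scaling, which does not use GC, gave structural and assembly medians of 0.03 and 0.07. Taken alone, these medians do not separate GC from rescaling. Relative to the median of all tested genes, the structural and assembly medians were 0.02 and 0.07 in the main fit. They were 0.03 and 0.07 with median-of-ratios scaling, and 0.01 and 0.01 with the GC correction. The part that base composition plays in the library differences was not otherwise tested.

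**Figure D4:**
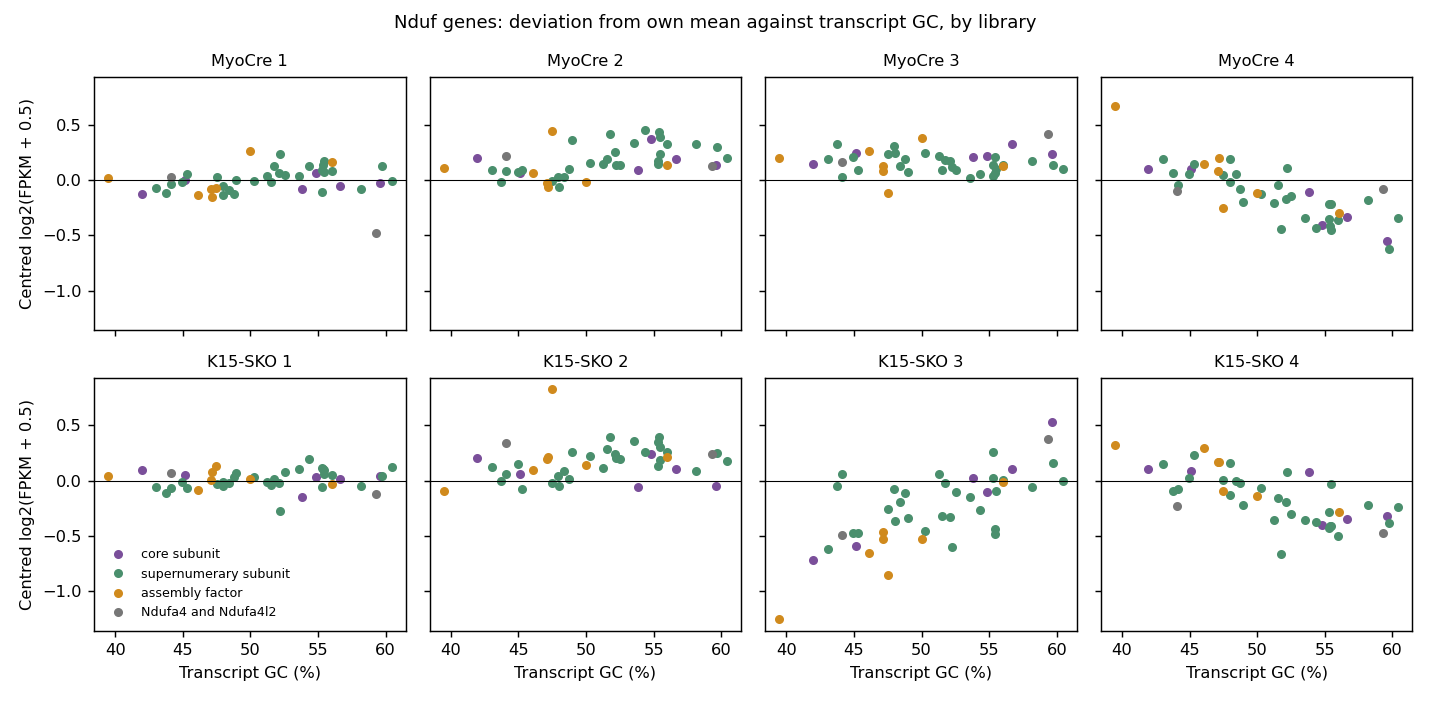
Centred log2(FPKM + 0.5) of the Nduf genes reported here against transcript GC in percent, 1 panel per library, coloured by role. GC-rich genes are low in MyoCre 4 and K15-SKO 4, and GC-poor genes, Ndufaf4 lowest of all, are low in K15-SKO 3.

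The spread between mice was moderate. The median coefficient of variation of a structural subunit was 12.6% in MyoCre and 18.1% in K15-SKO muscle, against 15.5% and 22.0% for the 582 tested genes that averaged 100 FPKM or more. For the assembly factors it was 14.9% and 21.8%, against 16.5% and 22.1% for the 6263 tested genes from 4 to 30 FPKM. In both classes the larger spread was in K15-SKO muscle, as it was for other genes of the same level. That spread includes K15-SKO replicate 3, the lowest library for 15 of 36 structural subunits and 6 of 7 assembly factors. It was not recomputed without that library.

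Of the nuclear complex I assembly genes without the Nduf name, 11 were tested. In limma 0 of 11 passed adjusted p 0.05 (0.55% of all tested genes) and 0 had an unadjusted p under 0.05 (4.33%). All 11 log2 fold changes were negative (77.0% of all tested genes), with a median of -0.21, or 0.09 below that of all tested genes, where the Nduf subunits and assembly factors lay above it. K15-SKO replicate 3 stood apart here too: the median of centred values was -0.51 there and -0.06, 0.09 and -0.01 in the other 3 K15-SKO libraries. Without it, an alternative chosen after seeing the data, 9 of 11 were negative (59.3% of all tested genes) and the median was -0.08, or 0.04 below that of all tested genes. The smallest unadjusted p-values belonged to Tmem186 (8.87 ± 0.60 FPKM in controls, 7.41 ± 1.35 FPKM in K15-SKO, log2 fold change -0.26), Atp5sl (23.7 ± 3.01 and 19.9 ± 2.85 FPKM, -0.25), and Tmem126b, which works with Ndufaf1 in the same intermediate complex (11.2 ± 1.27 and 9.27 ± 2.30 FPKM, -0.28). Without K15-SKO replicate 3 their log2 fold changes were -0.13, -0.18 and -0.10 in that order. Its partner Ecsit had a log2 fold change of -0.06 and Acad9, the third of that complex, one of -0.22. Of the complex I subunits encoded in mitochondrial DNA, mt-Nd6 alone has a row here. It is listed at 0 in 7 libraries and at 0.39 FPKM in K15-SKO replicate 1, and it was not tested; the other mitochondrially encoded subunits were not analysed here.

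Likeness over the 8 libraries to the mean profile of the structural subunits was described with Pearson's r. Among the subunits themselves it reached 0.97 for Ndufb9 and Ndufa10 and was lowest for Ndufb5, at 0.13. Outside the Nduf genes, the 5 most alike of all tested genes were the phosphatase gene Ptpn11 (0.99), the ubiquitin ligase scaffold Cul4a (0.99), Dnajc11 (0.99), the adducin gene Add1 (0.99) and Atp5b, the beta subunit of ATP synthase (0.99). These were picked as the highest among all tested genes over libraries that share depth and base composition effects, and they are given as a description.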

How the data were processed

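The authors deposited 1 table of 24033 genes with a value for each of 8 libraries, taken here as FPKM: per the submitters' processing notes the tools were STAR, Cufflinks and Cuffdiff on mm10, while the header gives sample names only. The sources used here do not state annotation release, strand setting, filters or scaling, so reads of a gene and of an antisense or overlapping partner may be mixed. Further columns of values numbered 0. Columns were assigned through the labels. The members and lists were chosen with earlier results of these data known.

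Log2(FPKM + 0.5) was fitted in limma 3.58.1 (R 4.3.3; trend, robust, genotype alone) on the 12535 genes averaging 1 FPKM or more, two-sided, with Benjamini-Hochberg adjustment and a threshold of 0.05; fold changes of low genes are understated on this scale. The script was tested on simulated data. Depth was estimated from the lowest values of FPKM times length among 4820 genes with a single transcript longer than 1000 bases; no count test was run. Of the table's gene IDs, 23896 matched GENCODE M21 without their version.

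Values in every library are given for all assembly factors, core subunits, the 4 highest and 3 lowest structural subunits, the 4 with the smallest p in each direction, Ndufa4, Ndufa4l2 and Ndufab1; 1 gene of that rule is not reported here, though the counts and medians include it; other genes were named after their values were seen. Alternatives were other pseudocounts, filters and scalings, no robust estimation, rows listed at 0 left out, the replicate block, each library left out and a GC correction.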

Additional observations from a re-analysis of the deposited data

Results flagged for a closer look

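Values far from the other 3 of their genotype were sought in 96 groups of 4, by Dixon's criterion on the gap to the nearest library, where chance at 1 in 20 gives 4.8. There were 5. In K15-SKO replicate 3, Ndufv2 (123.3 FPKM), Ndufs1 (129.1 FPKM) and Ndufa1 (220.3 FPKM) lay far below the other K15-SKO libraries. In MyoCre replicate 4, Ndufaf3 lay far below at 6.46 FPKM, and so did the structural minus the assembly median of centred log2 values, at -0.26.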

How the results depend on the processing

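The absence of a called Nduf gene held in all 19 alternatives, with 0 of 45 past adjusted p 0.05 in each and a smallest limma adjusted p of 0.832 over them. The count at an unadjusted p under 0.05 was 0 except without K15-SKO replicate 4, where it was 1 (Ndufaf4). The number of all genes called, 69, became 39 with a minimum mean of 5 FPKM, 12 without the rows listed at 0 in a genotype and 3 when median-of-ratios scaling was added to that; leaving out 1 library gave 59 to 80. The structural median ranged from -0.17 to -0.03 and the assembly median from -0.23 to 0.02 when 1 library was left out, and median-of-ratios scaling gave 0.03 and 0.07. Their difference ranged from -0.06 to 0.07 over the left-out libraries. Of 513 fold changes of 27 named genes under the alternatives, 68 turned sign, all uncalled. With the replicate block, 0 Nduf genes and 78 of all genes passed, and the smallest unadjusted p of an Nduf gene was 0.0594 (Ndufaf4). Same-numbered libraries had correlations of their deviations of 0.10, 0.23, 0.00 and 0.28, and differently numbered ones of -0.24 to 0.13. Of the 8 libraries, 5 correlated best with their own number. The main fit did not take the numbers as pairs, and whether they mark pairs was not tested. Low depth weighs most on the assembly factors with the fewest estimated fragments, such as Ndufaf2.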

Other observations

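The subunits of complexes II to V had medians near that of complex I. The median log2 fold change was -0.15 for 4 subunits of complex II, -0.15 for 9 of complex III, -0.09 for 13 of complex IV and -0.09 for 14 of complex V, against -0.10 for the structural subunits of complex I and -0.12 for all tested genes. Cox4i1 of complex IV is listed at 0 in all 4 MyoCre libraries and at 783.1 to 1128 FPKM in K15-SKO muscle. It is a subunit that respiring cells generally use, so the 0 may be a failed estimate and not a measurement; the gene passed adjusted p 0.05 in limma only on that 0, and no fold is given. None of the other subunits of complexes II to V passed, against 0.55% of all tested genes. Sdhb, the iron-sulfur subunit of succinate dehydrogenase, had 430.6, 492.8, 477.9 and 317.9 FPKM in the controls and 329.9, 361.6, 290.2 and 248.9 FPKM in K15-SKO muscle (log2 fold change -0.48, SE 0.20, limma adjusted p = 0.957). Cox6a2, the muscle form of a complex IV subunit, measured 1492, 1459, 1673 and 1042 FPKM and 970.3, 1058, 985.3 and 692.1 FPKM (log2 fold change -0.61, SE 0.21, limma adjusted p = 0.699). Both genes were chosen after their values were seen, for an unadjusted p under 0.05. The genotypes overlapped in both, through the low value of MyoCre replicate 4 alone. Without K15-SKO replicate 3, an alternative chosen after seeing the data, the log2 fold changes were -0.45 for Sdhb and -0.65 for Cox6a2.

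Of 11 regulators and markers of mitochondrial content, all 11 had negative log2 fold changes (77.0% of all tested genes), with a median of -0.23, or 0.10 below that of all tested genes, and 0 had an unadjusted p under 0.05 in limma (4.33% of all tested genes). K15-SKO replicate 3 stood apart, with a median of centred values of -0.43, against 0.03, -0.01 and 0.00 in the other 3 K15-SKO libraries. Without it, 9 of 11 were negative (59.3% of all tested genes) and the median was -0.08, or 0.04 below that of all tested genes; that alternative was chosen after seeing the data. Tfam, which maintains and transcribes mitochondrial DNA, averaged 16.9 ± 1.62 FPKM in controls against 14.9 ± 4.53 FPKM with the deletion, and the coactivator gene Ppargc1a 33.6 ± 17.6 and 30.8 ± 10.4 FPKM (SD, n = 4 each). Without K15-SKO replicate 3, where Tfam measured 8.19 FPKM, both directions turned: the K15-SKO means were 17.2 and 35.5 FPKM. Cs, also among the 11 and named after its values were seen, did not depend on that library for its direction. It measured 316.7, 316.3, 370.2 and 305.5 FPKM in MyoCre and 297.9, 298.3, 253.1 and 267.1 FPKM in K15-SKO muscle. Every K15-SKO library was below every MyoCre library, as in 2.72% of tested genes (log2 fold change -0.23, SE 0.16, limma adjusted p = 0.957).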
